A study of Mus musculus with 47 samples.

Results

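The 37 collagen genes examined here were fixed by name and located by their gene spans in the mm9 mouse genome, among 22350 protein-coding genes of the GENCODE annotation. They comprise 11 fibrillar collagens, 7 network-forming collagens and 19 others, and all 37 were found. ChIP-seq of liver was carried out for H3K27me3, the repressive mark placed by Ezh1 and Ezh2, and for H3K27ac and H3K4me1, which mark active promoters and enhancers. Groups were 7-week-old male and female mice, either floxed controls (Ezh2 f/f) or E1/E2-KO mice (labelled DKO), which are Ezh1-/- and Ezh2 f/f and carry the Alb-Cre transgene. The floxed Ezh2 allele is thus common to all groups, whereas Cre and the Ezh1 deletion are both found in the E1/E2-KO mice only. The albumin promoter drives Cre in hepatocytes, so that Ezh2 stays intact in stellate, endothelial, Kupffer and other non-parenchymal cells, while Ezh1 is lost in all cells. Chromatin came from whole frozen liver. The sample records give 4 livers for each group and mark, but 3 for H3K4me1 in E1/E2-KO females.

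The authors pooled the reads of a group before calling peaks, so that there is 1 list of peaks per mark and group, with positions only. The values below therefore carry no replicate error, the differences among groups have no test, and the sequencing depth is unknown. A gene outside the regions of a list may still hold some of the mark, and a gene inside them may have lost much of it. In whole liver, a change in the share of a cell type and a change of the mark within cells cannot be told apart. The H3K27me3 lists held 15603 to 19796 regions, the H3K4me1 lists 51417 to 69797 peaks and the H3K27ac lists 29359 peaks in control male against 49702 to 55930 in the other groups.

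Collagens are triple-helical proteins of the extracellular matrix. Fibrillar types such as collagens I, III and V build the scar tissue of fibrotic liver, where activated stellate cells are their main source, and type IV collagens form the sheet-like network of basement membranes. Hepatocytes make little collagen. Genes that a cell type keeps silent during development are commonly held under Polycomb repression, in which Ezh1 or Ezh2 trimethylates H3K27 over the gene.

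Sequences directly upstream of transcription starts are shown for 7 collagen genes because the results below turn on these starts: the stretch between the divergent type IV genes Col4a4 and Col4a3 and the bases before Col8a2 and Col9a2, 4 genes with an H3K27ac peak within 1 kb of the start in E1/E2-KO liver of both sexes, against Col1a1, Col1a2 and Col3a1, the major fibril genes. They were read from the NCBIM37 (mm9) genome, 5′ to 3′ on the strand of the gene, or on the plus strand for the divergent pair, and capitals mark CpG dinucleotides. In the same order their positions are chr1:82583425-82583495 (plus), chr4:125963937-125964036 (plus), chr4:120711890-120711989 (plus), chr11:94797438-94797537 (plus), chr6:4454714-4454813 (plus) and chr1:45368283-45368382 (plus).
Col4a4 to Col4a3: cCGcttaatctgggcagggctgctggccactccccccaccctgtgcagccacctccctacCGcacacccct
Col8a2: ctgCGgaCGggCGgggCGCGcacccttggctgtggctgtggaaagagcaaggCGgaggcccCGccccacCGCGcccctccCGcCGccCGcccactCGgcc
Col9a2: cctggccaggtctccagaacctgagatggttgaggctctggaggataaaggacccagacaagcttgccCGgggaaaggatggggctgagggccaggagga
Col1a1: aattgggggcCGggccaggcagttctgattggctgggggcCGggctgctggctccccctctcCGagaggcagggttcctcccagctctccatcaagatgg
Col1a2: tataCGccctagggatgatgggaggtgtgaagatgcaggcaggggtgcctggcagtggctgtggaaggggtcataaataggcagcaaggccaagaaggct
Col3a1: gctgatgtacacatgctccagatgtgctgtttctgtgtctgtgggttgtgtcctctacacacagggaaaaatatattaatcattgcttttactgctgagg

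These stretches differed widely in CpG content, from 13 CpG in the 100 bases before Col8a2 to 3 before Col1a1, 1 each before Col1a2 and Col9a2 and 0 before Col3a1. The median was 5 over the 37 collagen genes and 4 over all protein-coding genes. A GC box (GGGCGG on either strand) occurred in the 100 bases before 15 of 37 collagen genes (40.5%, against 31.0% of all genes), Col8a2 among them. A CCAAT box (CCAAT on either strand) occurred before 5 (13.5%, against 20.04%), Col1a1 among them, and TATAAA on either strand before 3 (8.11%, against 6.06%). These are matches of letters and were not examined for binding.

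Most collagen genes lay under H3K27me3 in control liver. At least 50% of the gene was inside regions for 26 of 37 collagen genes in male and 25 in female controls, and for 29 in male and 23 in female E1/E2-KO liver. The shares among all protein-coding genes were 29.9%, 29.8%, 32.5% and 28.8%. Sets of 4 values are given in this order throughout, males before females and controls before E1/E2-KO. Collagen genes are long, but among protein-coding genes of 20 kb or more the shares were no higher, at 27.8%, 26.9%, 29.1% and 26.8%, against 23, 22, 26 and 20 of the 33 collagen genes of that length. The median coverage of the collagen genes was 84.5%, 74.5%, 92.3% and 57.9% of the gene, and the median of all protein-coding genes was 0 in each list. Coverage by called regions thus stayed far above that of the genome in E1/E2-KO liver of both sexes. The lists give no signal, so whether the mark weakened inside these regions cannot be seen.

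**Figure D1:**
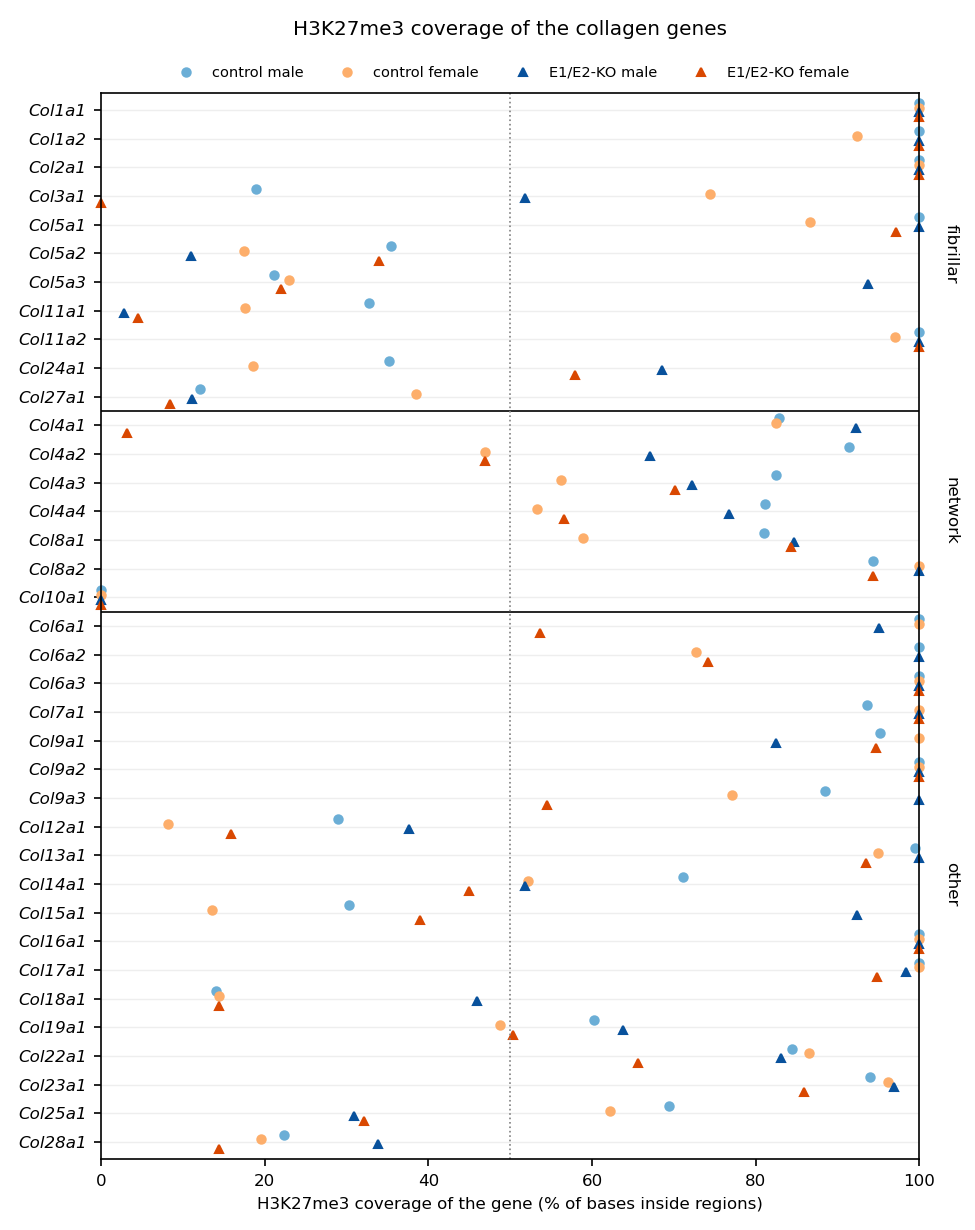
H3K27me3 coverage of each of the 37 collagen genes (x axis, percent of the bases of the gene inside regions) in the 4 lists, by class, with the dotted line at 50%. Circles are control and triangles E1/E2-KO liver, 1 pooled list each. Most genes sit to the right of the line, 21 of them in all 4 lists, and Col10a1 is at 0 throughout.

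Coverage reached 50% in all 4 lists for 21 collagen genes, in none for 7 and in 1 to 3 lists for 9. The 21 were 5 of 11 fibrillar genes, 4 of 7 network genes and 12 of 19 others. Among the 11 fibrillar genes, Col1a1, which encodes the α1 chain of type I collagen, and the cartilage collagen Col2a1 were covered over 100% of their length in every list. Col1a2, for the other chain of type I collagen, was covered to 100%, 92.4%, 100% and 100%, Col5a1 to 100%, 86.7%, 100% and 97.1%, and Col11a2 to 97.1% or more. At the other end, Col5a2 (35.5%, 17.5%, 11.0% and 33.9%), Col11a1 and Col27a1 stayed below 50% in all 4 lists. Coverage of 50% or more was found for 5, 6, 8 and 6 of 11 fibrillar genes.

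Of the 7 network genes, 6, 5, 6 and 4 reached 50%. Col4a3, a chain of the specialised basement membranes of kidney and lung, was covered to 82.5%, 56.2%, 72.2% and 70.1%, and its divergent partner Col4a4 to 81.2%, 53.3%, 76.8% and 56.5%. Both were lower in control female than in control male liver. Col10a1, the collagen of hypertrophic cartilage, overlapped no region in any list. Of the 19 other genes, 15, 14, 15 and 13 reached 50%. The 3 beaded filament genes were among them in every list, with 100% for Col6a3 throughout and 100%, 72.7%, 100% and 74.2% for Col6a2. Col14a1, a fibril-associated collagen of interstitial matrix, was covered to 71.1%, 52.1%, 51.8% and 45.01%.

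Transcription starts were marked more uniformly than gene bodies. The start, taken as the outermost annotated 5′ end, lay inside an H3K27me3 region for 35, 35, 34 and 32 of 37 collagen genes, against 34.7%, 35.4%, 39.1% and 34.1% of all protein-coding genes. Outside in both control lists were the starts of Col10a1 and Col28a1. Col22a1 joined them in both E1/E2-KO lists, and Col3a1 and Col9a3 did so in the E1/E2-KO female list. Genes covered to less than 50% in both control lists, such as Col5a3, Col11a1, Col12a1, Col15a1, Col18a1 and Col27a1, were marked at their 5′ ends in all 4 lists. CpG-rich starts, with a GC content of at least 55% and a CpG observed to expected ratio of at least 0.65 over 1000 bp, numbered 10 of 37, and all 10 lay inside regions in every list. The remaining 27, Col1a1, Col1a2 and Col3a1 among them, lay inside at 25, 25, 24 and 22 starts. Among all genes, starts that were not CpG-rich lay inside regions somewhat more often (37.4%, 38.4%, 40.7% and 36.7%) than CpG-rich ones (29.7%, 29.8%, 36.2% and 29.4%).

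Loss of Ezh1 and of hepatocyte Ezh2 was followed by no uniform change of coverage over the collagen genes. The median difference between E1/E2-KO and control was 0 percentage points in both sexes, and 26 of 37 genes differed by under 25 points in both. A fall of 25 points or more was seen for 2 genes in males (5.41%, against 6.08% of all genes) and 5 in females (13.5%, against 7.59%). A rise of that size was seen for 5 genes in males (13.5%, against 9.87%) and 3 in females (8.11%, against 6.30%). These small counts lie near the background of the lists, and only for falls in females was the share of collagen genes over 1.5 times that of all genes. The values just inside the threshold were differences of -24.3 points for Col4a2 and -24.5 points for Col5a2 in males, and those just outside it rises of 25.4 points for Col8a1 and 25.5 points for Col15a1 in females.

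**Figure D2:**
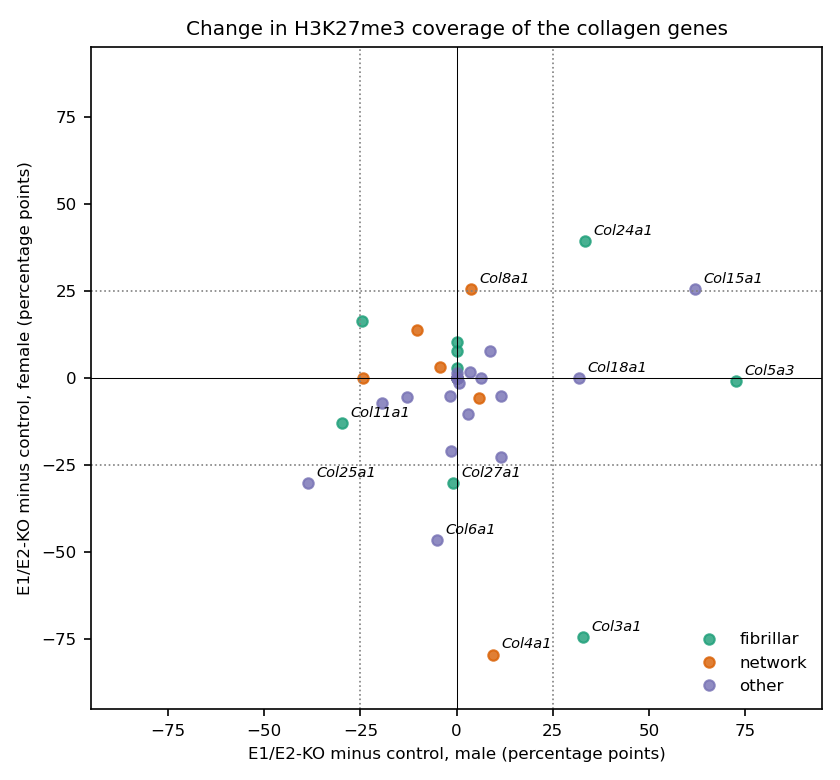
Difference in H3K27me3 coverage between E1/E2-KO and control liver, in percentage points, in males (x axis) and females (y axis) for each collagen gene, coloured by class. Dotted lines stand at 25 points. Most genes lie near the origin, Col15a1 and Col24a1 rose in both sexes, Col25a1 fell in both, and Col3a1 lies at a rise of 32.9 in males and -74.5 in females.

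The largest falls were in female liver. Col4a1, which encodes a chain of the ubiquitous basement membrane collagen, was covered to 82.9%, 82.5%, 92.3% and 3.2%, so that E1/E2-KO female liver alone was low. A region of 6400 bp (chr8:11312401-11318800) still held the start and reached 426 bp into the gene, and another (chr8:11170801-11201600) lay over 3178 bp at the 3′ end. Control female liver had a region of 14400 bp at the start and further regions along the gene body. Col4a2 starts 21 bp from Col4a1 in the opposite direction, and its coverage was 91.4%, 46.9%, 67.1% and 46.9%, equal in females of the 2 genotypes. Col3a1, for the fibril-forming collagen III, was covered to 18.9%, 74.5%, 51.8% and 0%. In control female liver a region of 32000 bp (chr1:45364801-45396800) held its start and most of its body, and no region touched the gene in E1/E2-KO female liver. The difference was thus opposite in the sexes, at 32.9 points in males and -74.5 points in females. The neighbouring Col5a2, whose span ends 24614 bp from that of Col3a1, showed no such drop in females, with a rise of 16.4 points there.

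Col6a1, a chain of the microfibrillar collagen VI, was covered to 100%, 100%, 95.03% and 53.6%, again lowest in E1/E2-KO female liver. Col27a1, a fibrillar collagen of cartilage, was covered to 12.04%, 38.5%, 11.04% and 8.4%, and a pair of gene body regions of 25600 and 15600 bp was called in control female liver only. Col11a1, a minor fibrillar collagen of cartilage, was covered to 32.7%, 17.5%, 2.8% and 4.5%, lower in E1/E2-KO liver of both sexes, although the difference of -13.0 points in females lay under the threshold. Col25a1, a transmembrane collagen best known from neurons, was the one gene that fell by 25 points or more in both sexes, from 69.5% to 30.9% in males and from 62.2% to 32.1% in females.

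Among the few collagen genes whose coverage fell, most starts stayed inside a region. This held for 2 of 2 genes in males and 4 of 5 in females, Col25a1 being in both counts and Col3a1 the exception. Among all protein-coding genes whose coverage fell by 25 points or more and whose start had lain inside a control region, 37.3% in males and 31.1% in females kept it inside. Of all starts inside a control region, whatever the change, 34 of 35 collagen starts in males and 32 of 35 in females were kept, against 85.5% and 81.2% of all genes. Neither comparison was matched for length. Of the collagen genes 33 of 37 are 20 kb or more, against 9711 of 22350 protein-coding genes.

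The largest rises were in male liver. Col5a3, a minor fibrillar collagen chain, was covered to 21.1%, 22.9%, 93.8% and 22.0%, and the additional region in E1/E2-KO male liver (chr9:20563601-20605600, 42000 bp) lay over 69.1% of the gene. Col15a1 and Col18a1 encode the multiplexins, basement membrane collagens whose C-terminal parts are released as endostatin-like fragments. Col15a1 was covered to 30.3%, 13.5%, 92.4% and 39.0%, and thus rose in both sexes. Col18a1 was covered to 14.1%, 14.4%, 45.9% and 14.4%, and its region in E1/E2-KO male liver reached 52493 bp into the gene, against 16093 bp in control male. Col24a1, a fibrillar collagen, was covered to 35.2%, 18.6%, 68.6% and 57.9%, higher in E1/E2-KO liver of both sexes. Col8a1, a network collagen of endothelial basement membranes, rose in females by 25.4 points, from 58.9% to 84.4%.

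The same E1/E2-KO lists placed H3K27me3 regions over hepatocyte genes that had none in control liver. Of 6 hepatocyte markers, 0 were covered to 50% in either control list and 2 in each E1/E2-KO list, namely Apoa1 (0%, 0%, 100% and 50.3%) and Hnf4a (0%, 0%, 89.1% and 71.0%). All 6 had H3K27ac peaks in every list. Of 6 endothelial markers, 4 reached 50% in each control list and 1 in each E1/E2-KO list, and Pecam1, Stab2 and Cdh5 fell in both sexes. For stellate cell markers the count was 5 of 6 in all 4 lists and for cholangiocyte markers 4 of 4. For Kupffer cell markers it was 3, 3, 3 and 2 of 5. The part of these shifts in the values of the collagen genes was not tested.

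H3K27ac was found at more collagen starts in E1/E2-KO than in control liver of both sexes. A peak lay within 1 kb of the start for 2, 6, 12 and 12 of 37 collagen genes, against 44.9%, 50.8%, 51.8% and 51.5% of all protein-coding genes. By class, network genes had 2, 2, 5 and 6 of 7, the 19 others 0, 2, 5 and 6, and fibrillar genes 0, 2, 2 and 0 of 11. The network counts hold fewer separate peaks than genes. Col4a1 and Col4a2 start 21 bp apart, Col4a3 and Col4a4 72 bp apart, and each pair shares 1 peak where it has any. In males, 10 collagen genes (27.03%) had such a peak in the E1/E2-KO list only, against 7.28% of all genes, and 0 in the control list only, against 0.309%. In females the counts were 8 (21.6%), against 2.46%, and 2 (5.41%), against 1.84%. Among the 6716 protein-coding genes whose start lay inside H3K27me3 in both control lists, as it did for 35 collagen genes, the shares with a peak in the E1/E2-KO list only were 16.2% in males and 6.15% in females. Peaks in that set were found at 18.2%, 30.3%, 34.1% and 33.2% of starts, against 5.71%, 17.1%, 34.3% and 34.3% for the 35 collagen genes. With all lists reduced to the same number of widest peaks, an alternative added after the data were seen, these shares were 18.2%, 22.9%, 24.9% and 25.1% in that set, against 5.71%, 14.3%, 11.4% and 17.1% for the 35 collagen genes, lower in all 4 lists.

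**Figure D3:**
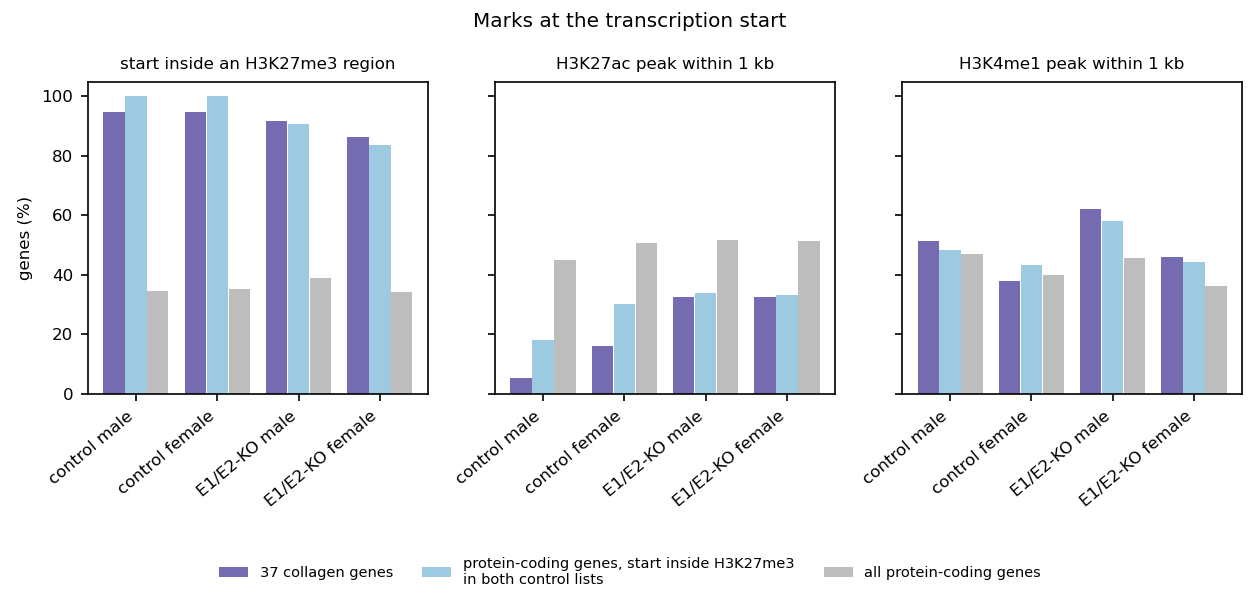
Percent of genes (y axis) whose start lies inside an H3K27me3 region or within 1 kb of an H3K27ac or H3K4me1 peak, in each of the 4 lists per mark. Bars compare the 37 collagen genes with genes whose start lay inside H3K27me3 in both control lists and with all protein-coding genes. H3K27ac at collagen starts goes from 5.41% and 16.2% in control to 32.4% in E1/E2-KO liver of each sex, while H3K27me3 is at 86.5% or more. With equal numbers of the widest H3K27ac peaks (not drawn), the collagen shares are 5.41% and 13.5% in control and 10.8% and 16.2% in E1/E2-KO males and females.

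All of the 12 E1/E2-KO starts with an H3K27ac peak, in each sex, also lay inside an H3K27me3 region of the same group, as did the 2 and 6 control starts. Over all protein-coding genes this held for 1698 of 10027, 2645 of 11361, 3824 of 11584 and 2842 of 11500 starts with such a peak. Among the 6716 genes marked at the start in both control lists, it held for 1949 of 2288 in E1/E2-KO males and 1637 of 2229 in E1/E2-KO females. Since 35, 35, 34 and 32 of the 37 collagen starts lay inside regions, nearly any choice of collagen starts gives such an overlap. Gained in both sexes were the starts of Col4a3, Col4a4, Col8a2, Col9a2, Col13a1 and Col16a1. Col4a3 and Col4a4 start 72 bp apart and share 1 peak. It lay at chr1:82583583-82584218 in E1/E2-KO males and at chr1:82583525-82584122 in E1/E2-KO females, inside Col4a3 and downstream of the 71 bases printed above. At Col8a2, a network collagen, the peak in E1/E2-KO female liver (chr4:125963927-125964134) spanned the 100 bases shown with their 13 CpG. The peak in E1/E2-KO male liver (chr4:125964025-125964395) reached only the end of these bases and lay mostly downstream. At Col9a2, a fibril-associated collagen, it lay downstream of the start in both sexes. The common start of Col4a1 and Col4a2 carried a peak in all 4 lists, with widths of 642, 1588, 1414 and 1273 bp. At Col1a2 a narrow peak (210 bp) was called in E1/E2-KO males only.

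The start counts depended on which peaks were used. With equal numbers of the widest H3K27ac peaks in each list, 29359, starts with a peak numbered 2, 5, 4 and 6 (all genes 44.9%, 46.9%, 46.9% and 47.0%). Those with a peak in the E1/E2-KO list only were 2 in males (5.41%, against 3.63% of all genes) and 3 in females (8.11%, against 2.13%). The pair Col4a3 and Col4a4 kept its peak in E1/E2-KO liver of both sexes at that setting, and was absent from both control lists.

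Peaks within 10 kb of a gene were counted next, and those without an overlapping peak in the other genotype of the same sex are called gained or lost. Any H3K27ac peak within 10 kb was found for 18, 24, 28 and 25 collagen genes (all genes 60.4%, 67.1%, 69.0% and 68.4%), so that the count was nearly equal in females of both genotypes. In males 26 collagen genes had a gained peak (70.3%, against 47.5% of all genes) and 3 a lost one (8.11%, against 9.54%). In females 18 had a gained peak (48.6%, against 28.8%) and 14 a lost one (37.8%, against 31.8%). Among genes of 20 kb or more, gained peaks were found at 72.7% of collagen genes in males, against 63.6% of all such genes, and at 48.5% in females, against 42.9%. Lost peaks were found at 9.09% in males, against 15.4%, and at 42.4% in females, against 45.9%. With equal numbers of the widest peaks, 8 collagen genes had a gained peak in each sex (21.6%), against 23.0% of all genes in males and 17.9% in females. At this setting 7 had a lost peak in males (18.9%, against 22.2%) and 11 in females (29.7%, against 21.1%). With all peaks, network genes had a gained peak at 6 of 7 in both sexes, Col10a1 being the exception. Fibrillar genes had 6 and 3 of 11 and the others 14 and 9 of 19, in males and females respectively. Neighbouring network genes can share peaks, as Col4a3 and Col4a4 did at their starts. With equal numbers of the widest, male peak numbers rose at Col4a1, Col4a3 and Col4a4 and fell at Col4a2 and Col8a2. In females they rose at Col4a3, Col4a4 and Col8a2 and fell at Col4a2. The remaining network genes were unchanged in each sex.

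**Figure D4:**
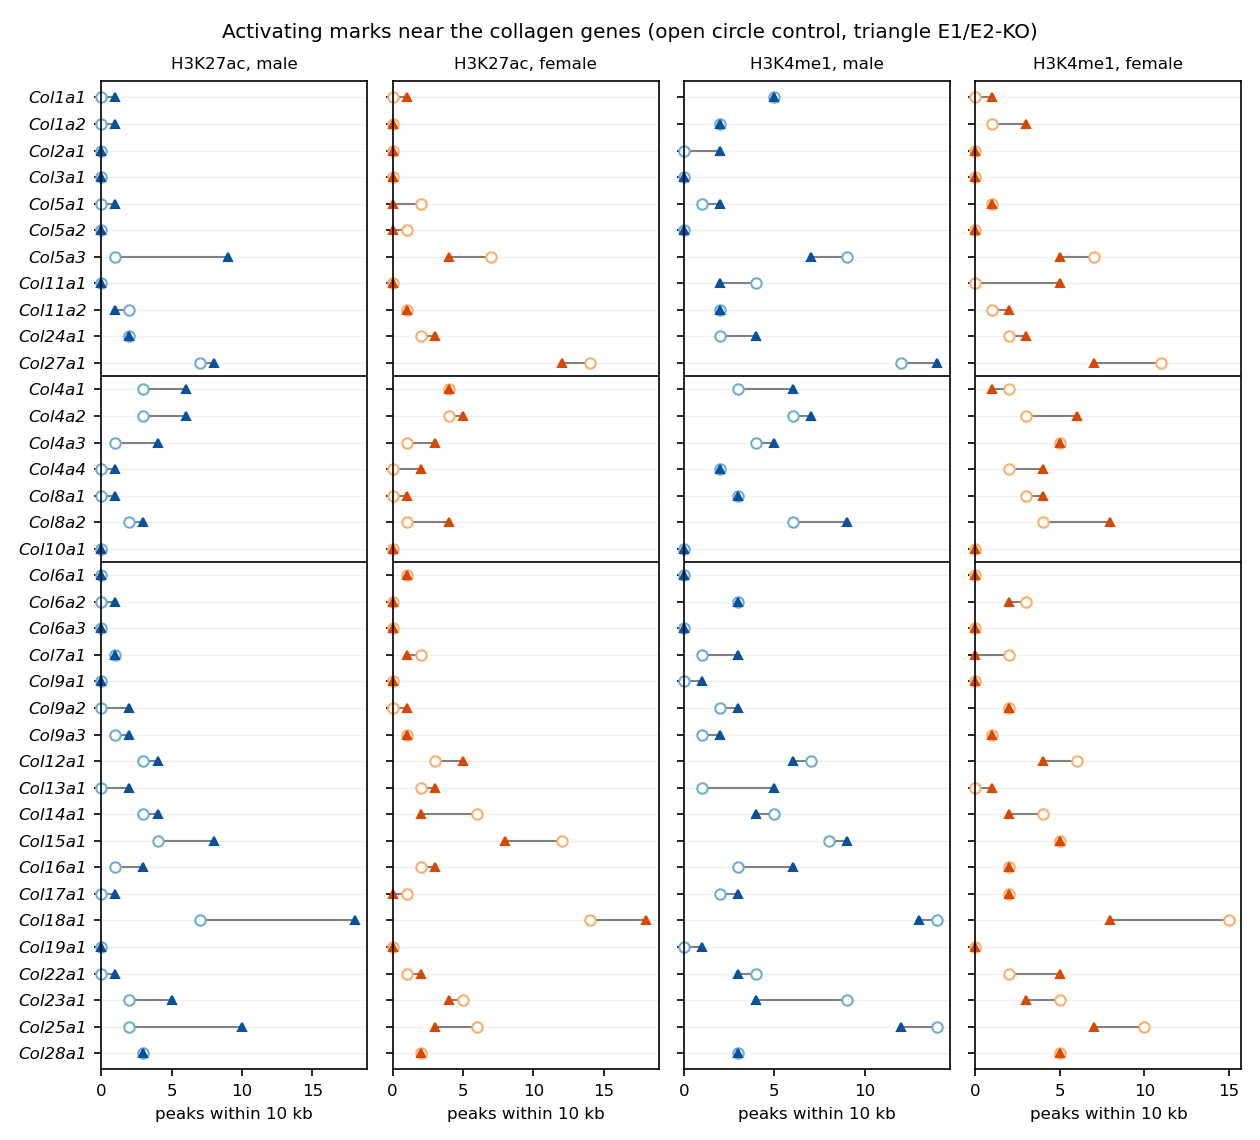
Number of H3K27ac and H3K4me1 peaks within 10 kb of each collagen gene (x axis) in control (open circles) and E1/E2-KO (triangles) liver of each sex, 1 pooled list each, with classes divided by lines. In males H3K27ac triangles lie to the right of the circles at 24 genes and to the left at 1, in females at 13 and 10, and Col18a1 reaches 18 peaks. The male lists differ in length, with 29359 H3K27ac peaks for control and 55930 for E1/E2-KO liver. With equal numbers of the widest H3K27ac peaks (not drawn), E1/E2-KO males had more at Col4a1, Col4a3, Col4a4, Col12a1, Col15a1 and Col18a1. They had fewer at Col4a2, Col8a2, Col11a2, Col14a1, Col24a1, Col27a1 and Col28a1, and the remaining genes were equal.

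Col18a1 had the largest rise over both sexes and the most peaks in both E1/E2-KO lists, with 7, 14, 18 and 18 H3K27ac peaks. Col27a1 had as many as Col18a1 in both control lists. The control male list held 29359 H3K27ac peaks and the E1/E2-KO male list 55930, against 49702 and 51253 in females. With equal numbers of the widest peaks Col18a1 had 7, 12, 10 and 12 peaks. In E1/E2-KO female liver all but 1 of the 18 were centred 7978 to 87454 bp downstream of the outermost start, in the body of the gene. Internal starts annotated 52602 to 52872 bp downstream were outside H3K27me3 and within 1 kb of H3K27ac in all 4 lists, while the outermost start was inside H3K27me3 in all 4. A peak there was called in E1/E2-KO females only (chr10:76628741-76628954, 214 bp). Col5a3 had 1, 7, 9 and 4 peaks, so that the sexes went opposite ways, but 1, 2, 1 and 2 when each list was reduced to the same number. In E1/E2-KO male liver all 9 overlapped an H3K27me3 region, whereas the single peak of control male liver did not. Col4a3 had 1, 1, 4 and 3 peaks and Col4a4 0, 0, 1 and 2, higher in E1/E2-KO liver of both sexes. Col25a1 rose by as much as Col5a3 and Col4a3 over both sexes, but in males only, with 2, 6, 10 and 3 peaks, and had 2, 1, 2 and 1 with equal numbers of the widest. Col4a1 had 3, 4, 6 and 4 and Col4a2 3, 4, 6 and 5, with peaks shared at their common start. With equal numbers of the widest, Col4a1 had 3, 2, 4 and 2. Col4a2 had 3, 3, 2 and 2 at that setting, lower in E1/E2-KO liver of both sexes.

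**Figure D5:**
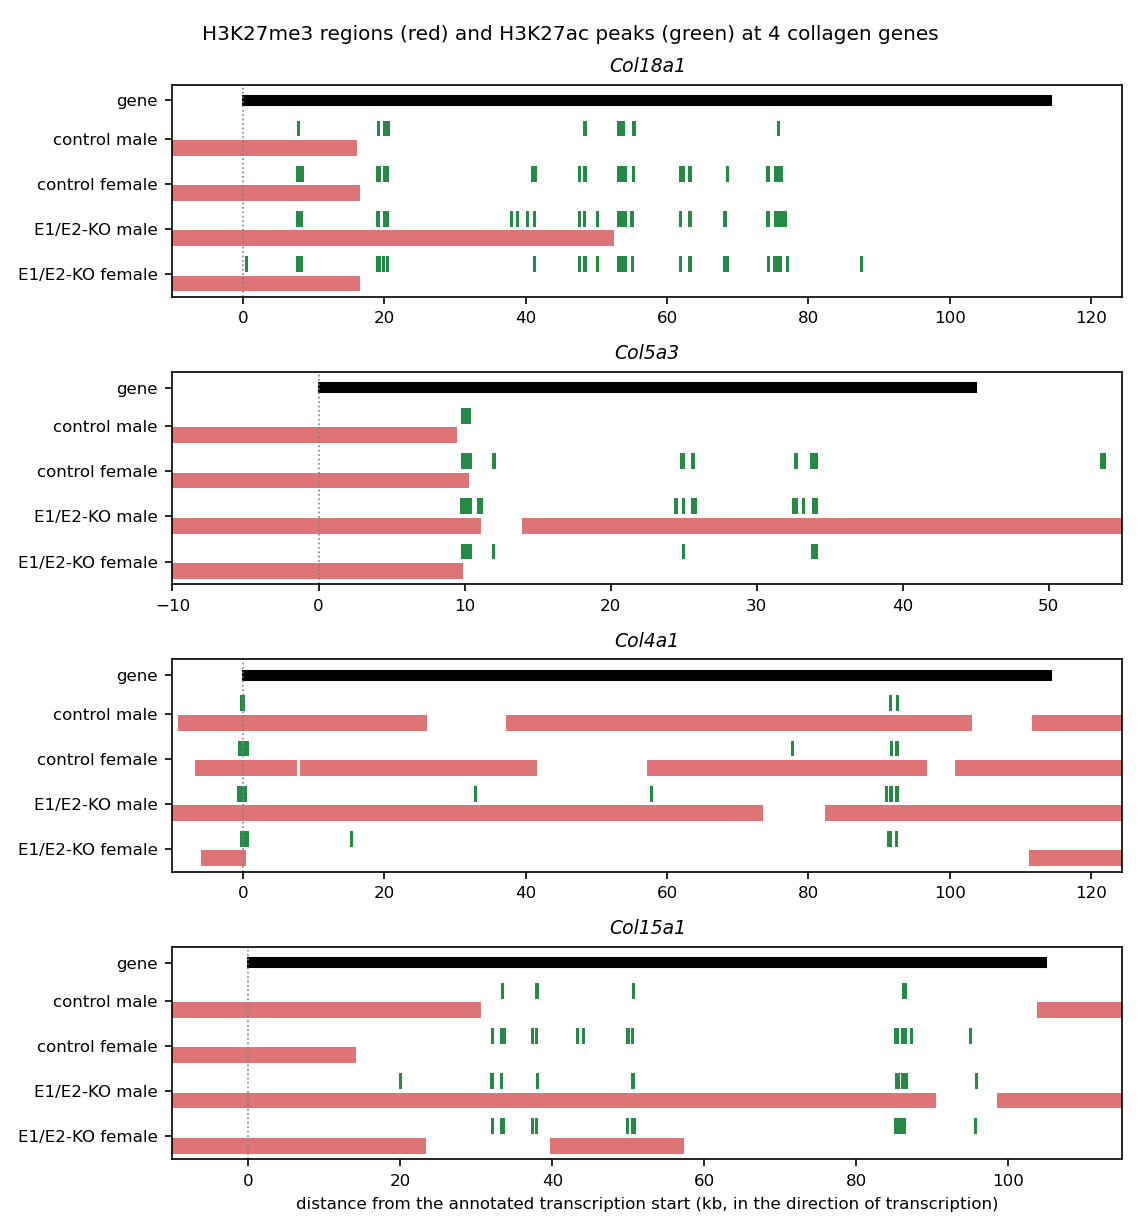
H3K27me3 regions (red) and H3K27ac peaks (green) of the 4 lists at Col18a1, Col5a3, Col4a1 and Col15a1, by distance from the outermost annotated start in kb, with the gene as a black bar and regions drawn up to 10 kb beyond it. Red stretches cover each start in all 4 lists, extend over the body of Col18a1, Col5a3 and Col15a1 in E1/E2-KO male liver, and are confined to the 2 ends of Col4a1 in E1/E2-KO female liver.

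Chains of collagens I, III and VI, together with Col5a1 and Col5a2, had at most 2 H3K27ac peaks in any list, unlike the type V chain Col5a3. Col3a1 and Col6a3 had 0 in all 4 lists, Col1a1 had 0, 0, 1 and 1, Col1a2 had 0, 0, 1 and 0, and Col6a2 had 0, 0, 1 and 0. Col5a1 had 0, 2, 1 and 0, Col5a2 had 0, 1, 0 and 0, and Col6a1 had 0, 1, 0 and 1. The complete loss of H3K27me3 regions from Col3a1 in E1/E2-KO female liver was thus not accompanied by a called peak of either activating mark. Col14a1 had the largest fall in the number of H3K27ac peaks over both sexes, a change of -3. Tied at -1 were Col5a1, Col5a2, Col7a1, Col11a2 and Col27a1, of which Col7a1 and Col11a2 are the shortest. Col27a1 had 7, 14, 8 and 12 peaks, and 7, 7, 6 and 7 with equal numbers of the widest. Col14a1 went from 3 to 4 peaks in males and from 6 to 2 in females, but had 3, 3, 1 and 1 with equal numbers of the widest, a fall in both sexes. Col7a1, the anchoring fibril collagen, went from 2 to 1 in females with 1 in both male lists. With equal numbers of the widest it had 1 in all 4 lists. Col11a2 went from 2 peaks to 1 in males with 0 lost, since 1 wider E1/E2-KO peak (2266 bp) overlapped both control peaks (878 and 707 bp), and had 1 in both female lists. Col15a1 had 4, 12, 8 and 8 peaks, more in males and fewer in females after the loss of Ezh1 and Ezh2, and at the internal starts 50374 and 50695 bp downstream of its outermost start a peak was called in all 4 lists.

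H3K4me1 peaks both appeared and disappeared near collagen genes, with 54 gained and 37 lost in males and 36 gained and 41 lost in females. The whole lists held 20023 gained and 22173 lost H3K4me1 peaks in males and 16445 and 20401 in females. An H3K4me1 peak lay within 1 kb of the start for 19, 14, 23 and 17 collagen genes, against 47.1%, 39.8%, 45.8% and 36.2% of all genes. It was found in the E1/E2-KO list only for 7 genes in males (18.9%, against 6.42%) and 4 in females (10.8%, against 5.69%), and in the control list only for 3 in males (8.11%, against 7.76%) and 1 in females (2.70%, against 9.31%). Among the 6716 genes whose start lay inside H3K27me3 in both control lists, the E1/E2-KO-only shares were 12.7% in males and 8.70% in females. The control-only shares in that set were 2.90% and 7.71%. Within 10 kb, a gained peak was found at 25 collagen genes in males (67.6%, against 44.6% of all genes) and 19 in females (51.4%, against 39.8%). A lost peak was found at 19 in males (51.4%, against 45.7%) and 16 in females (43.2%, against 46.4%). Among genes of 20 kb or more, gained peaks were found at 69.7% of collagen genes in males, against 60.9% of all such genes, and at 54.5% in females, against 56.1%. Lost peaks were found at 54.5% in males, against 62.0%, and at 48.5% in females, against 61.6%.

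The largest rise in H3K4me1 was at a network gene. Col8a2 had 6, 4, 9 and 8 H3K4me1 peaks and Col4a2 had 6, 3, 7 and 6, both higher in E1/E2-KO liver of each sex. Col13a1, a transmembrane collagen of cell junctions, had 1, 0, 5 and 1, a rise in males for the most part. The largest falls were those of Col18a1 with 14, 15, 13 and 8 peaks, Col23a1 with 9, 5, 4 and 3, and Col25a1 with 14, 10, 12 and 7. Col18a1 and Col25a1 thus had more H3K27ac and fewer H3K4me1 peaks over both sexes together when all peaks were counted, although Col25a1 had fewer of both in females. Col1a1 had 5, 0, 5 and 1 H3K4me1 peaks and Col1a2 2, 1, 2 and 3, which all overlapped H3K27me3. Col3a1, Col5a2, Col6a1, Col6a3 and Col10a1 had 0 in every list.

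The position of activating peaks was set against the H3K27me3 regions of the same group. These regions held 65.8%, 56.8%, 64.6% and 52.3% of collagen gene bases, against 30.4%, 28.7%, 30.6% and 28.9% for all genes, so the shares of peaks inside regions are given as a description and nothing about collagen genes is read from their distance to the whole lists. For H3K27ac the shares were 27.7% (Wilson 95% interval 16.9% to 41.8%, 13 of 47 peaks), 33.0% (24.3% to 43.0%, 31 of 94), 64.5% (55.1% to 72.9%, 69 of 107) and 32.6% (23.9% to 42.7%, 30 of 92). The shares over the whole lists were 15.5%, 19.1%, 33.6% and 22.2%. For H3K4me1 they were 52.9%, 44.2%, 65.3% and 46.5% near collagen genes, against 27.7%, 25.9%, 39.9% and 27.9%. These intervals cover counting error only, and peaks of 1 gene are not independent. Of the 66 H3K27ac peaks gained near collagen genes in males, 25 lay in regions of both genotypes, 5 in a control region only, 21 in an E1/E2-KO region only and 15 in neither. These are 37.9%, 7.58%, 31.8% and 22.7%, against 22.1%, 7.78%, 14.7% and 55.4% of the 30485 peaks gained in the whole male list. In females the 30 gained peaks divided into 16, 2, 0 and 12, or 53.3%, 6.67%, 0% and 40%, against 21.6%, 11.5%, 6.57% and 60.3% of 12739.

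Genes that modify, process or bind collagen were examined as a further list of 33, all of which were found. Coverage of 50% or more was seen for 19, 15, 21 and 16 of them, against 29.9%, 29.8%, 32.5% and 28.8% of all protein-coding genes, with medians of 73.7%, 46.7%, 79.1% and 36.5%. Falls of 25 points or more numbered 4 in males (12.1%, against 6.08% of all genes) and 5 in females (15.2%, against 7.59%). Rises numbered 6 in males (18.2%, against 9.87%) and 5 in females (15.2%, against 6.30%). Loxl3, a lysyl oxidase that crosslinks collagen, fell from 100% to 38.2% in males and from 100% to 14.3% in females. Pcolce, which enhances cleavage of procollagen, fell from 100% to 62.3% and from 94.6% to 0%, and Leprel1, a prolyl 3-hydroxylase, from 100% to 56.3% and from 86.9% to 36.5%. Bmp1, the protease that removes C-propeptides, rose from 5.48% to 100% in males and from 23.9% to 100% in females, and Lepre1 and Ppib, partners in prolyl 3-hydroxylation, rose in both sexes as well. P4ha1, P4hb, Plod1, Crtap and the integrin subunit gene Itgb1 were at 0% in all 4 lists, whereas Serpinh1, the collagen chaperone, and the crosslinking genes Lox and Loxl1 were at 100% in all 4.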

How the data were processed

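Sonicated chromatin from whole livers was precipitated and sequenced (50 nt, paired-end). The authors pooled the reads by group, aligned them to mm9 using Bowtie 2 (version 2.3.2), and used SICER (version 1.1) for H3K27me3, joining windows of 400 bp over gaps of 2400 bp, and MACS2 (version 2.1.1) with its defaults for both activating marks. The 12 deposited lists hold mm9 positions only, with no counts, signal or score. Read depth per sample is not given in the sources used here, so the precision of a call is unknown.

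The base that SICER ends leave out was added. Genes, exons and starts came from GENCODE release M1 on NCBIM37, which is mm9. Coverage is the share of the bases of a gene that regions contain, in percent. Thresholds were 50% for a covered gene and 25 percentage points for a change. Peaks were assigned within 10 kb of a gene, or within 1 kb of its start, and called gained or lost when no peak of the other genotype of the same sex overlapped by 1 bp. No test was made, since each group has 1 list. Counts stand beside the share of all protein-coding genes meeting the same rule, or of those of 20 kb or more.

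The collagen genes, classes and further lists were chosen with earlier results of these data known. Genes given in detail are those changed by 25 points in either sex, the main interstitial and basement membrane collagens of liver matrix, and, for each activating mark, the 3 with the largest rise and the 3 with the largest fall in peaks summed over both sexes, the longer gene last among equals. Others, such as starts with gained peaks, were named after their values were seen. Alternatives were 25% coverage, a change of 50 points, spans extended by 3 kb, a window of 2 kb around the start, the widest 50% of regions, peaks within 50 kb or inside the gene, an overlap of 50%, and equal numbers of the widest peaks. Programs were Python 3.11.15, NumPy 2.4.6 and matplotlib 3.10.9, and the interval computations were tested on simulated lists.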

Additional observations from a re-analysis of the deposited data

Results flagged for a closer look

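The difference in H3K27me3 coverage of Col3a1 between E1/E2-KO and control liver went opposite ways in the sexes, at 32.9 percentage points in males and -74.5 points in females. With 1 pooled list per group, the difference between the sexes was not tested.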

How the results depend on the processing

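Counts of collagen genes covered to 50% stayed within 1.5 times their value under each alternative, as did the counts of genes with an H3K4me1 peak gained or lost within 10 kb. At a change of 50 points, the falls numbered 0 in males and 2 in females and the rises 2 and 0. In the window of 2 kb around the start there was 1 fall in males and 0 rises in either sex. With the widest 50% of regions the falls in males were 4, and with spans extended by 3 kb the rises in females were 1. For H3K27ac within 10 kb, equal numbers of the widest peaks gave 8 genes with a gained peak in males, 8 in females, and 7 with a lost peak in males. Peaks within 50 kb gave 6 genes with a lost peak in males and 22 in females, and an overlap of 50% gave 5 in males. Starts with an H3K27ac peak in the E1/E2-KO list only went from 10 to 2 in males and from 8 to 3 in females with equal numbers of the widest peaks, and stayed within 1.5 times with distances of 500 bp or 2 kb. The cause was not tested. No paired analysis was possible because the livers were pooled and the lists carry no replicate number, and for the same reason no liver could be left out. Regions have no score and the depth is unknown, so weak and strong calls count alike.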
